A study of Lupinus albus with 12 samples.

Results

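Gibberellins are plant growth hormones that are made in several enzyme steps and are switched off again by oxidation. The 10 genes described here encode enzymes annotated for this pathway in white lupin (Lupinus albus, cultivar Amiga), a legume. A deposited gene table of 33388 genes held 36 whose protein names contain ent-kaurene, ent-copalyl, or gibberellin together with oxygenase or oxidase. Of these, 9 were chosen by their reads, as those with the most summed over 12 libraries. Lalb_Chr13g0296671, named ent-kaurene synthase and 14th of the 36 by reads, was added by its identifier, with earlier results of these data known. Its levels are therefore given as a description with no test, and tests are given for the other 9. The last gene taken by reads was Lalb_Chr24g0395691 with 3900 reads, and the first left out was Lalb_Chr10g0097021, a 3-beta-dioxygenase, with 3538. All 10 genes passed edgeR's filter on low counts, as did 20 of the 26 left out. The 6 genes that failed it held at most 146 reads each.

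The study asked how root transcripts respond to added sucrose, in wild-type plants grown hydroponically in Hoagland solution. The 12 libraries fall into 4 groups of 3 plants, with 1 plant to a library: control roots taken at 0 min without sucrose, and roots taken 20, 40 or 80 min after sucrose was brought to 10 mM. Each sample was several root sections with their tips from a single plant. No untreated plants of the later times were used here, so an effect of sucrose and one of handling or of the hour of harvest cannot be told apart.

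The pathway begins in plastids, where ent-copalyl diphosphate synthase and ent-kaurene synthase cyclise geranylgeranyl diphosphate to ent-kaurene. The cytochrome P450 ent-kaurene oxidase then starts the oxidation of ent-kaurene. Soluble dioxygenases complete the path: 20-oxidases, listed here as gibberellin-44 dioxygenase, and 3-beta-dioxygenases make the active hormones, and 2-beta-dioxygenases inactivate them. In roots gibberellins are known for promoting cell elongation and division near the tip, through the breakdown of DELLA repressors.

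The protein families in the deposited table matched most of the names and went against the name of Lalb_Chr13g0296671. Both ent-kaurene oxidases, of 510 and 544 amino acids, were listed as cytochrome P450 proteins. Of the 24 genes named as dioxygenases, 22 were listed in the iron/ascorbate-dependent oxidoreductase family and 2 had no family listed. That same family was given for 6 of the 8 genes named ent-kaurene synthase, of 293 to 391 amino acids, Lalb_Chr13g0296671 with its 383 among them. Ent-kaurene synthases of plants are terpene cyclases, which is a different protein family. The other genes of that name, with no family listed, were Lalb_Chr01g0015561 of 795 amino acids and Lalb_Chr11g0066241 of 162, which had 2 reads in all. Lalb_Chr13g0296671 is accordingly called by its identifier below. Its enzyme activity cannot be read from its name.

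Library totals ranged from 35050877 to 105299704 reads. A principal component analysis of all genes placed 20 min replicate 2 (156) and 80 min replicate 3 (108) highest on the first component. It held 18.8% of the variance, with the other 80 min plants at its opposite end (-145 and -129). Next highest was 40 min replicate 2 (85.7), away from the other 40 min plants (-20.05 and -10.7). The distance to the nearest other library (root mean square of log2 differences) was largest for 20 min replicate 2, at 1.61. For 80 min replicate 3 it was 1.46, as for control replicates 1 and 2 and 40 min replicate 2. Counts of calls among the 9 genes are given with and without 20 min replicate 2 and 80 min replicate 3. Both were chosen for their place on the first component in these same data. Every adjusted p-value of the fit without them is therefore descriptive. The fit without them kept 40 min replicate 2. Levels are given as CPM, read counts scaled to library size with TMM factors. The summed CPM of 52 root tissue genes lay between 744 and 1215 in all libraries. The 39 genes matching the words for low oxygen (alcohol dehydrogenase, pyruvate decarboxylase, hypoxia, non-symbiotic hemoglobin) summed to 31468, 2756 and 21380 CPM in 20 min replicates 1, 2 and 3, against 5779 to 8563 in controls, 2400 to 3451 at 40 min and 3074 to 4561 at 80 min. Of these 39, 19 are cinnamyl-alcohol, polyvinyl, allyl or quinoprotein alcohol dehydrogenases, which are not markers of low oxygen. The other 20 summed to 30731, 1985 and 20548 CPM in the 20 min plants, against 4417 to 7702 in controls, 1510 to 2386 at 40 min and 2159 to 3791 at 80 min. The 111 green tissue genes gave 1958, 570 and 1318 CPM at 20 min, 565 to 729 in controls, 349 to 683 at 40 min and 459 to 555 at 80 min. The 12 genes of a replication list, meant to mark dividing cells, gave 987, 1017 and 405 CPM in 80 min replicates 1, 2 and 3, against 513 to 698 in controls, 270 to 501 at 20 min and 847, 467 and 732 at 40 min. Of these 12, 9 are replication licensing factors and proliferating cell nuclear antigens, with 809, 820.1 and 333 CPM in the 80 min plants, and 3 match only by a word in their names. No cyclin A or B was matched. No gene of these lists was at 0 reads over the series. Sections of whole root mix cell types, so fewer cells of a type and less RNA per cell cannot be told apart.

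In untreated roots a gene of inactivation had the highest level per length of the 10. The 2-beta-dioxygenase Lalb_Chr18g0055431 stood at 21.6 ± 9.62 FPKM (a level per gene length and library size, as deposited by the authors; SD, n = 3), and its 3 plants lay above those of the next gene. That was the 3-beta-dioxygenase Lalb_Chr22g0361581 at 10.7 ± 2.12 FPKM, which overlapped with the 2-beta-dioxygenase Lalb_Chr17g0345151 at 8.91 ± 1.85. Between 6.95 and 5.33 FPKM on average lay Lalb_Chr24g0392801 (ent-kaurene oxidase) and then Lalb_Chr04g0250531, Lalb_Chr20g0108961 and Lalb_Chr03g0031441 (all 2-beta-dioxygenases), each overlapping with its neighbour. Below a gap came Lalb_Chr13g0296671 at 2.03 ± 0.577, Lalb_Chr24g0395691 (3-beta-dioxygenase) at 1.42 ± 0.384 and Lalb_Chr03g0034161 (gibberellin-44 dioxygenase) at 0.930 ± 0.615 FPKM, which overlapped in turn.

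**Figure D1:**
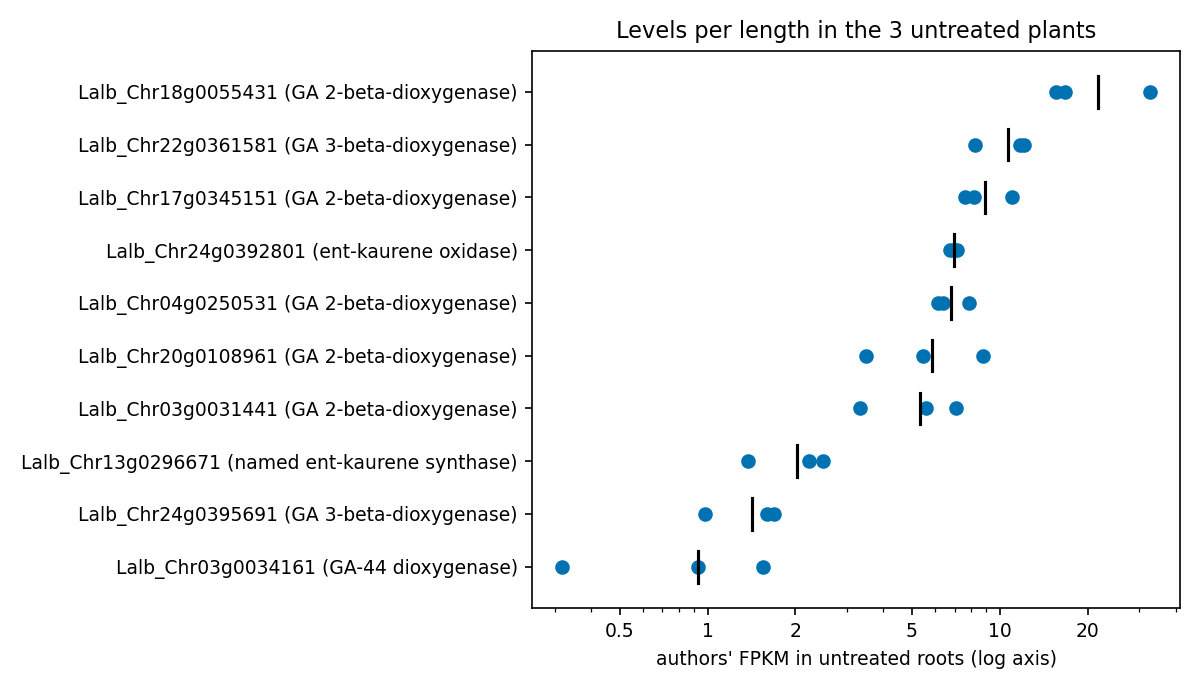
Level per length of the 10 genes in the 3 untreated plants, in the authors' FPKM on a log axis; points are plants and bars are means. Lalb_Chr18g0055431 lies highest at a mean of 21.6 FPKM, and the 3 lowest genes lie at means of 2.03, 1.42 and 0.930 FPKM.

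Lalb_Chr13g0296671 had its lowest level in the plants with the longest exposure. Its control plants showed 5.36, 5.27 and 3.01 CPM and its 20 min plants 5.15, 10.1 and 6.50 CPM. At 40 min the values were 1.23, 1.97 and 0.924 CPM, and at 80 min 0.137, 0.267 and 0.336 CPM. Control and 20 min plants overlapped, the 40 min plants lay below all of those, and the 80 min plants lay below all others. The 80 min values rest on 12, 28 and 24 reads, against 188 to 297 in the controls. Group means ± SD were 4.55 ± 1.33, 7.24 ± 2.54, 1.37 ± 0.539 and 0.247 ± 0.101 CPM (n = 3 each). Log2 fold changes against control were 0.67 at 20 min, -1.72 at 40 min and -4.20 at 80 min, and the authors' deposited table lists 0.64, -1.75 and -4.24. Leaving out 20 min replicate 2 and 80 min replicate 3 gave 0.26, -1.74 and -4.50, so the 20 min value moved most.

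**Figure D2:**
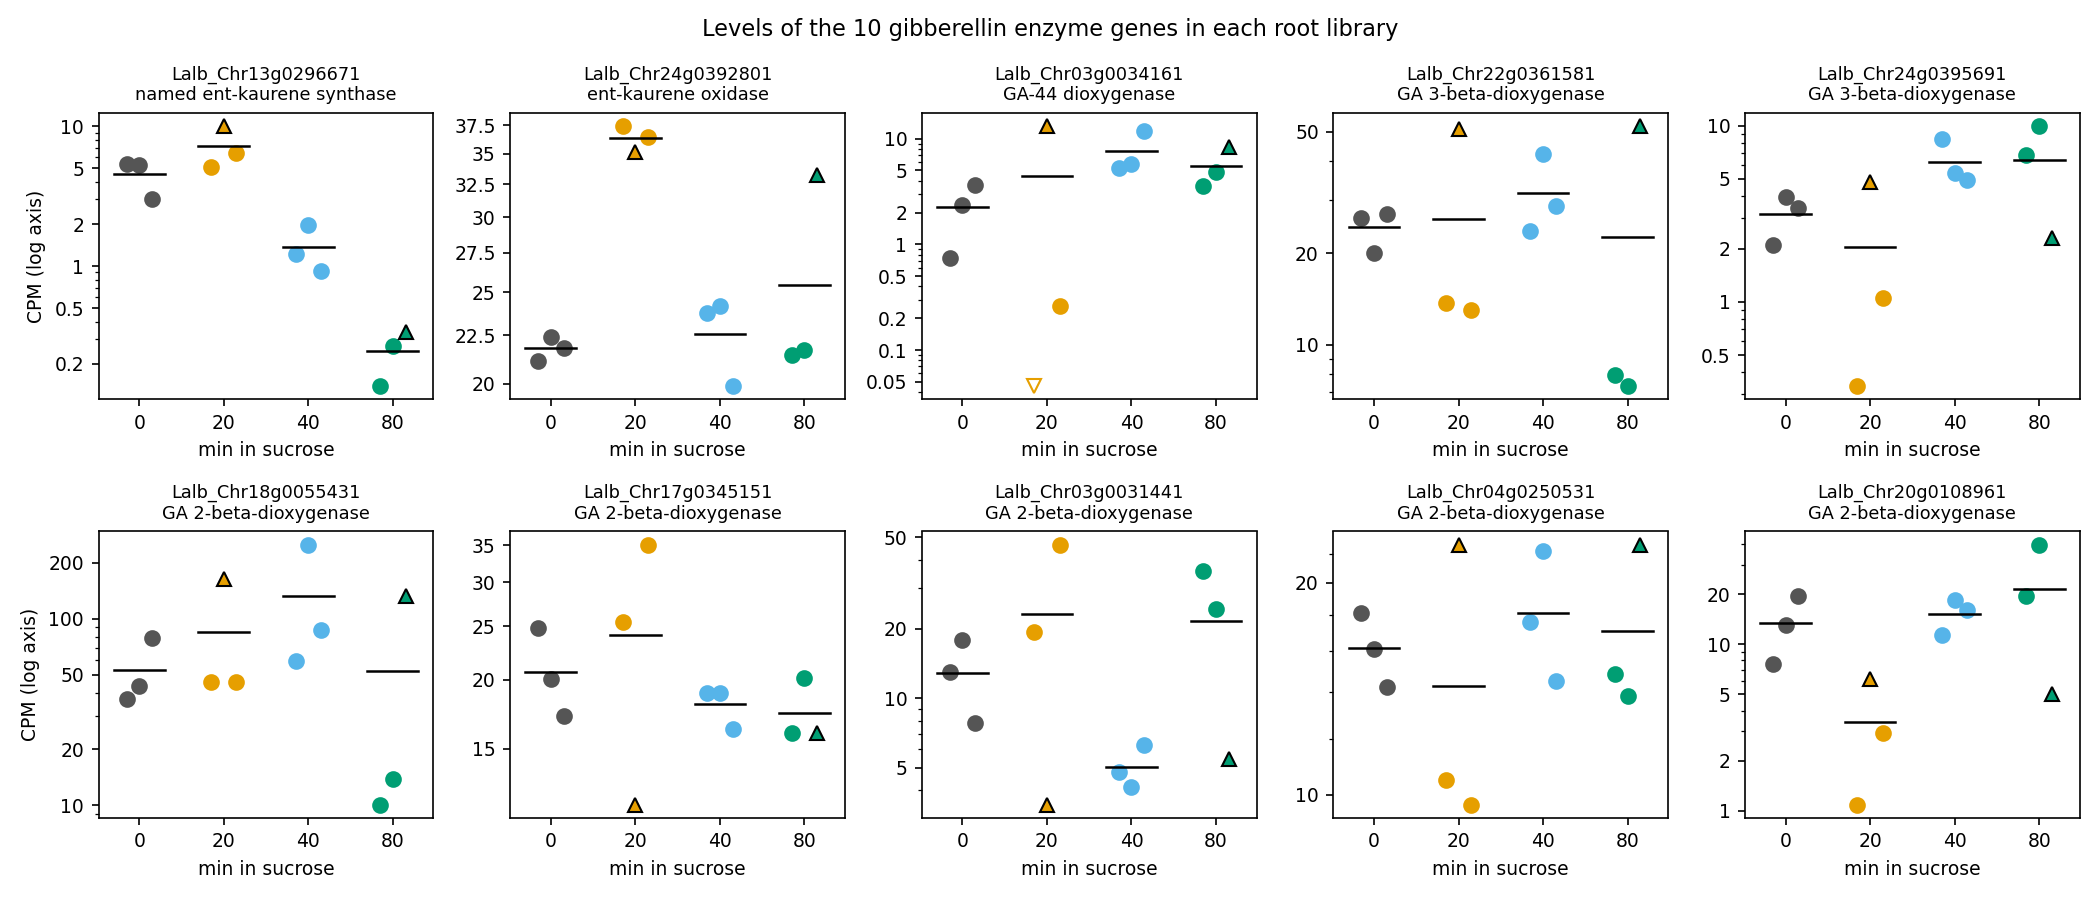
CPM of the 10 genes in each library on log axes, by min in sucrose; bars are group means, triangles with a black edge mark 20 min replicate 2 and 80 min replicate 3, and the open triangle is a library with 0 reads drawn at the level of 3 reads. Lalb_Chr13g0296671 falls to 0.137 to 0.336 CPM at 80 min, the 20 min plants of Lalb_Chr24g0392801 stand above its controls, and most dioxygenases spread widely within a group.

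None of the 9 genes taken by reads was called against control with edgeR at an adjusted p below 0.05. At 20, 40 and 80 min 0 of 9 passed, against 0.0242%, 0.0897% and 0.0104% of the 28980 genes tested. An unadjusted p below 0.05 was reached by 2, 0 and 0 of the 9, against 12.6%, 5.99% and 9.91% of all genes. DESeq2 called 1, 0 and 0 of the 9 (4.44%, 2.02% and 3.11% of all genes). The plants of both groups did not overlap in CPM for 2, 3 and 0 of the 9, against 21.6%, 15.3% and 17.7% of all genes. The median log2 fold change of the 9 was 0.22, 0.18 and 0.22, where that of all genes tested was 0.06, 0.08 and 0.12.

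In comparisons between sucrose times the control plants enter only the shared spread and scaling of the fit. EdgeR again called 0 of 9 and 0% of all genes in each comparison. For 40 against 20 min, 3 of the 9 had an unadjusted p below 0.05 (14.2% of all genes), DESeq2 called 1 (5.07%), and 3 did not overlap (18.5%). For 80 against 40 min the counts were 1 (4.51%), 0 (0.87%) and 0 (9.42%). For 80 against 20 min they were 2 (17.3%), 1 (7.44%) and 1 (15.8%). Over the 4 time points together edgeR's F test called 0 of 9 (0.0725% of all genes), with 2 at an unadjusted p below 0.05 (13.4%) and 1 called by DESeq2 (8.37%).

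Ent-kaurene oxidase Lalb_Chr24g0392801, which oxidises ent-kaurene on the way to the first gibberellins, was the steadiest of the 10 within the control and 20 min groups. Controls showed 21.2, 22.4 and 21.8 CPM and 20 min plants 37.4, 35.1 and 36.5 CPM. At 40 min the values were 23.7, 24.2 and 19.9 CPM, and at 80 min 21.5, 21.7 and 33.2 CPM. In CPM all 3 plants at 20 min lay above all 9 others, and 80 min replicate 3 was the nearest to them. This depended on the scaling. In the authors' FPKM 80 min replicate 3 was the highest of all libraries (11.3), with 10.3 to 11.1 at 20 min and 6.74 to 7.13 in controls. The mean at 20 min was 36.4 ± 1.16 CPM, or 1.67 times the control mean of 21.8 ± 0.615. On the log2 scale the difference was 0.74 (SE 0.20, edgeR adjusted p = 0.232), with an adjusted p of 0.0179 by DESeq2 and 0.0236 in the authors' deposited table.

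From 20 to 40 min the same gene had a log2 fold change of -0.69 (SE 0.20, edgeR adjusted p = 0.237, DESeq2 adjusted p = 0.0226), and the plants did not overlap. From 20 to 80 min it was -0.51 (SE 0.20, edgeR adjusted p = 0.24, DESeq2 adjusted p = 0.0923). Without 20 min replicate 2 and 80 min replicate 3, edgeR called the 20 min rise over control (0.67, adjusted p = 0.0264) and both falls (-0.63, adjusted p = 0.0281, and -0.70, adjusted p = 0.0225). At 20 min replicate 2, with a low-oxygen sum of 2756 CPM, showed 35.1 CPM of this gene, and replicates 1 and 3, with sums of 31468 and 21380 CPM, showed 37.4 and 36.5. The part of low oxygen in the levels of this gene was not tested.

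Gibberellin-44 dioxygenase Lalb_Chr03g0034161, the only one of the 10 with this name, spread most at 20 min. Controls showed 0.738, 2.36 and 3.63 CPM, and 20 min plants 0, 13.2 and 0.261 CPM. At 40 min it stood at 5.25, 5.71 and 11.7 CPM, and at 80 min at 3.57, 4.83 and 8.32 CPM. The lowest and the highest of its 12 CPM values were both at 20 min, and all 40 min plants lay above the controls. In the authors' FPKM the highest value was at 40 min (5.38), above the highest at 20 min (5.03). The log2 fold change at 40 min was 1.75 (SE 1.6, edgeR adjusted p = 0.999). In the fit without 20 min replicate 2 and 80 min replicate 3, the other 20 min plants were below the 40 min plants by a log2 fold change of 5.89 (edgeR adjusted p = 0.0423), with 0 reads in replicate 1. They were below 80 min replicates 1 and 2 by 5.03 (adjusted p = 0.0484).

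The 3-beta-dioxygenases carry out the last step to active gibberellins. Lalb_Chr22g0361581 showed 26.0, 19.97 and 26.9 CPM in controls and 13.8, 51.1 and 13.0 CPM at 20 min. Its values were 23.7, 42.2 and 28.6 CPM at 40 min and 7.96, 7.31 and 52.3 CPM at 80 min. Replicate 2 at 20 min and replicate 3 at 80 min were each the highest of their group, and the other plants at those times lay below every control. With all plants the 80 min mean was 22.5 ± 25.8 CPM against 24.3 ± 3.77 in controls. The log2 fold change at 80 min against control was then -0.11 (edgeR adjusted p = 0.969). It was 0.28 from 20 to 40 min (edgeR adjusted p = 0.917) and -0.48 from 40 to 80 min. Without the 2 libraries these were -1.68 (edgeR adjusted p = 0.0197), 1.32 (adjusted p = 0.0202) and -2.05 (adjusted p = 0.0205), in that order. The libraries were picked from these same data, so the adjusted p-values without them are descriptive.

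The other 3-beta-dioxygenase, Lalb_Chr24g0395691, showed 2.10, 3.94 and 3.43 CPM in controls and 0.332, 4.77 and 1.05 CPM at 20 min. It stood at 8.36, 5.40 and 4.93 CPM at 40 min and at 6.79, 9.94 and 2.31 CPM at 80 min. The 40 min plants lay above all control and 20 min plants. The log2 fold change at 40 min was 0.98 against control (SE 0.83, edgeR adjusted p = 0.999) and 1.61 against 20 min (SE 0.84, edgeR adjusted p = 0.415). Without 20 min replicate 2 the latter was 3.17, and without both libraries 3.23 (edgeR adjusted p = 0.0168), with 3.65 from 20 to 80 min (adjusted p = 0.0121). Both 3-beta-dioxygenases were thus highest at 20 min in replicate 2, but at 80 min replicate 3 was the highest for one and the lowest for the other.

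Among the 5 2-beta-dioxygenases, which turn active gibberellins and their precursors into inactive forms, Lalb_Chr18g0055431 had the most reads of all 36 genes, 61201. It showed 37.0, 43.3 and 78.5 CPM in controls and 45.6, 163 and 45.8 CPM at 20 min. Values were 59.7, 250.4 and 87.2 CPM at 40 min and 10.05, 13.8 and 133 CPM at 80 min. The highest plant of each sucrose time was 3.57, 4.19 and 13.2 times the lowest, against 2.12 times in controls. The highest plants at 40 and 80 min had the lowest replication list sums of those times, 467 and 405 CPM, while the highest at 20 min had the highest sum of its group, 501 CPM. The part of cell division in these values was not tested. Without the 2 libraries the gene was called only from 40 to 80 min among the 6 comparisons, with a log2 fold change of -3.47 (edgeR adjusted p = 0.044). That fit left out the plants at 163 and 133 CPM but kept 40 min replicate 2 at 250.4 CPM. With all 12 libraries the log2 fold change from 40 to 80 min was -1.34 (edgeR unadjusted p = 0.2).

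Lalb_Chr20g0108961, another 2-beta-dioxygenase, had its lowest values at 20 min. Controls showed 7.65, 13.1 and 19.4 CPM, and 20 min plants 1.09, 6.23 and 2.92 CPM. At 40 min it stood at 11.3, 18.3 and 16.0 CPM, and at 80 min at 19.5, 39.7 and 5.04 CPM. The 20 min plants lay below all control and 40 min plants, while 80 min replicate 3 lay within the range of the 20 min plants. The log2 fold change at 20 min was -1.98 (SE 0.76, edgeR adjusted p = 0.337). It was 2.16 from 20 to 40 min (SE 0.77, edgeR adjusted p = 0.275) and 2.65 from 20 to 80 min (SE 0.78, edgeR adjusted p = 0.178, DESeq2 adjusted p = 0.0115).

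Without 20 min replicate 2 and 80 min replicate 3, all of these changes of Lalb_Chr20g0108961 were called by edgeR. Those plants had its highest level at 20 min and its lowest at 80 min, so the adjusted p-values are descriptive. The log2 fold changes were then -2.81 at 20 min against control (adjusted p = 0.0297), 2.99 from 20 to 40 min (adjusted p = 0.0209) and 3.95 from 20 to 80 min (adjusted p = 0.0106). At 20 min the plants with the highest low-oxygen sums, replicates 1 and 3, had the lowest levels of this gene, while at 80 min replicate 3, with the lowest sum of its group (3074 CPM), had the lowest level. The part of low oxygen in this result was not tested.

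Lalb_Chr03g0031441, the third 2-beta-dioxygenase, showed 13.0, 18.0 and 7.80 CPM in controls and 19.5, 3.45 and 46.5 CPM at 20 min. Its values were 4.76, 4.11 and 6.27 CPM at 40 min and 35.5, 24.3 and 5.43 CPM at 80 min. The 40 min plants lay close together and below all controls, and 20 min replicate 2 and 80 min replicate 3 were each the lowest of their group. The log2 fold change at 40 min was -1.36 (SE 0.83, edgeR adjusted p = 0.98), and it was -2.20 from 20 to 40 min (SE 0.85, edgeR adjusted p = 0.302) and 2.11 from 40 to 80 min (SE 0.85, edgeR adjusted p = 1). Without the 2 libraries edgeR called the fall from 20 to 40 min (-2.63, adjusted p = 0.0149) and the rise from 40 to 80 min (2.56, adjusted p = 0.0393).

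The remaining 2-beta-dioxygenases varied less. Lalb_Chr17g0345151 showed 24.8, 20.04 and 17.2 CPM in controls and 25.4, 11.9 and 35.1 CPM at 20 min. It then stood at 18.9, 19.0 and 16.3 CPM at 40 min and 16.0, 20.1 and 16.0 CPM at 80 min. Its 20 min plants were the most spread and held both its highest and its lowest value, and each sucrose time overlapped with the controls.

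Lalb_Chr04g0250531 showed 18.1, 16.1 and 14.2 CPM in controls and 10.5, 22.6 and 9.68 CPM at 20 min. Its values were 17.6, 22.2 and 14.5 CPM at 40 min and 14.9, 13.8 and 22.7 CPM at 80 min. Replicate 2 at 20 min and replicate 3 at 80 min were again the highest of their groups, and each sucrose time overlapped with the controls. Without them the log2 fold change from 20 to 40 min was 0.93 (edgeR adjusted p = 0.0367).

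Without these 2 libraries edgeR called 2, 0 and 1 of the 9 genes at 20, 40 and 80 min against control, beside 8.16%, 0.846% and 5.54% of 29445 genes tested. It called 7 of 9 for 40 against 20 min (10.7%), 3 for 80 against 40 min (2.27%) and 4 for 80 against 20 min (17.8%). The F test over the 4 time points called 6 of 9 (15.2%). The 20 min group then consists of replicates 1 and 3 alone, the plants with the higher low-oxygen and green tissue sums. The 80 min group consists of replicates 1 and 2, while 40 min replicate 2 was kept. The libraries left out were chosen for their place on the first component in these same data, so a smaller spread within groups was built in. The adjusted p-values of this fit are therefore descriptive. Over all genes the calls for 40 against 20 min went from 0 to 3140.

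**Figure D3:**
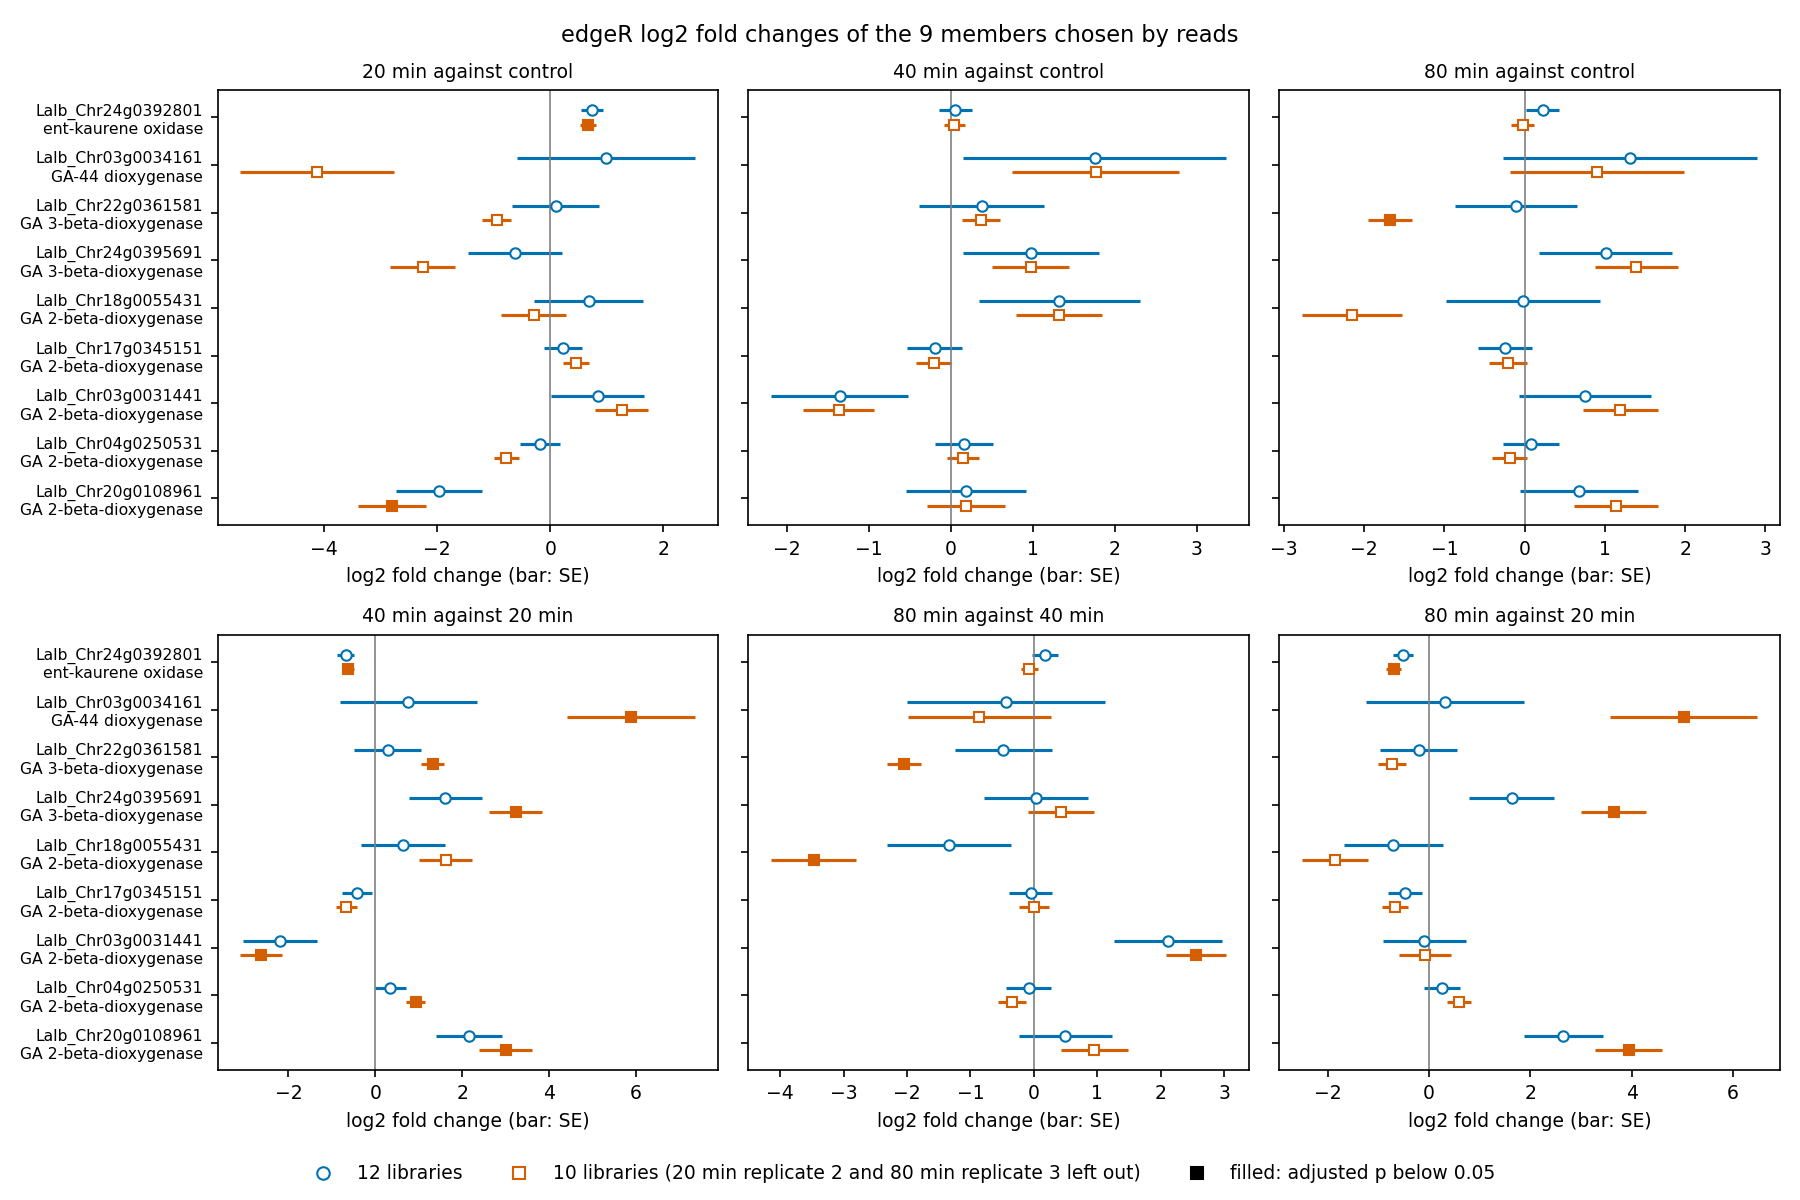
Log2 fold changes of the 9 genes taken by reads in the 6 comparisons, with SE as bars; circles are the edgeR fit on all 12 libraries, squares the fit without 20 min replicate 2 and 80 min replicate 3, and filled symbols have an adjusted p below 0.05. No circle is filled, and 7 of 9 squares are filled for 40 against 20 min.

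Of the 20 tested genes with these protein names outside the 10, edgeR called 0 in every comparison. DESeq2 called 1, 2 and 1 of them at 20, 40 and 80 min against control, all lower (4.44%, 2.02% and 3.11% of all genes in either direction), and an unadjusted p below 0.05 was reached by 4, 3 and 1 (12.6%, 5.99% and 9.91%). Between sucrose times it called 3 for 40 against 20 min, 2 of them higher (5.07%), 0 for 80 against 40 min (0.87%) and 4 for 80 against 20 min, 3 of them higher (7.44%). Without 20 min replicate 2 and 80 min replicate 3 edgeR called 0, 1 and 1 at 20, 40 and 80 min against control (8.16%, 0.846% and 5.54%), and 5, 1 and 4 for 40 against 20, 80 against 40 and 80 against 20 min (10.7%, 2.27% and 17.8%). Lalb_Chr20g0107791, chosen here after its values were seen, is an ent-copalyl diphosphate synthase, the enzyme of the first step, of 553 amino acids. It showed 2.21, 1.33 and 1.83 CPM in controls and 0.212, 0 and 0.261 CPM at 20 min. Its values were 1.99, 0.875 and 7.17 CPM at 40 min and 9.12, 8.80 and 1.05 CPM at 80 min. All 20 min plants lay below all others, and 80 min replicate 3 lay far below the other 80 min plants. It lies next to Lalb_Chr20g0107801, the only other gene of this name, with no coding gene between them.

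Summed over all 36 genes by name, the 20 min plants stood above the controls for the ent-kaurene oxidases and below them for the ent-copalyl diphosphate synthases. The oxidases gave 7.49 ± 0.307 FPKM in controls and 11.3 ± 0.214 at 20 min, then 8.72 ± 0.843 at 40 min and 9.10 ± 2.33 at 80 min. The ent-copalyl diphosphate synthases gave 0.706 ± 0.249, 0.146 ± 0.0197, 1.34 ± 1.28 and 2.54 ± 1.64 FPKM in that order. Each difference at 20 min came from the gene of that name with most reads. Lalb_Chr24g0392801 had means of 6.95 FPKM in controls and 10.8 at 20 min, and the other oxidase 0.539 ± 0.142 and 0.457 ± 0.258. Lalb_Chr20g0107791 had means of 0.629 FPKM in controls and 0.0517 at 20 min, and Lalb_Chr20g0107801 0.0762 ± 0.0681 and 0.0946 ± 0.0534. The sums share the genes described above and carry no test.

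The 12 2-beta-dioxygenases summed to 53.1 ± 9.53, 62.3 ± 18.0, 89.1 ± 47.0 and 63.2 ± 19.5 FPKM in the same order. The 7 3-beta-dioxygenases gave 16.7 ± 2.15, 14.2 ± 10.8, 22.6 ± 4.37 and 16.8 ± 11.2, and the 5 gibberellin-44 dioxygenases 2.02 ± 0.152, 2.41 ± 2.50, 3.58 ± 1.79 and 2.81 ± 1.09 FPKM. In each of these dioxygenase classes the range of every sucrose time except the gibberellin-44 dioxygenases at 40 min overlapped with that of the controls. For the 3-beta-dioxygenases the plants at 20 min (7.70, 26.7 and 8.24 FPKM) and 80 min (10.2, 10.5 and 29.7 FPKM) lay on both sides of the controls. None fell within the control range of 14.6 to 18.9 FPKM. Genes named ent-kaurene synthase split by family. The 6 in the oxidoreductase family summed to 3.07 ± 0.453, 4.83 ± 2.23, 2.34 ± 1.12 and 1.32 ± 0.424 FPKM, and the others to 0.665 ± 0.0719, 0.711 ± 0.142, 0.951 ± 0.143 and 0.939 ± 0.144 FPKM, nearly all from Lalb_Chr01g0015561.

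**Figure D4:**
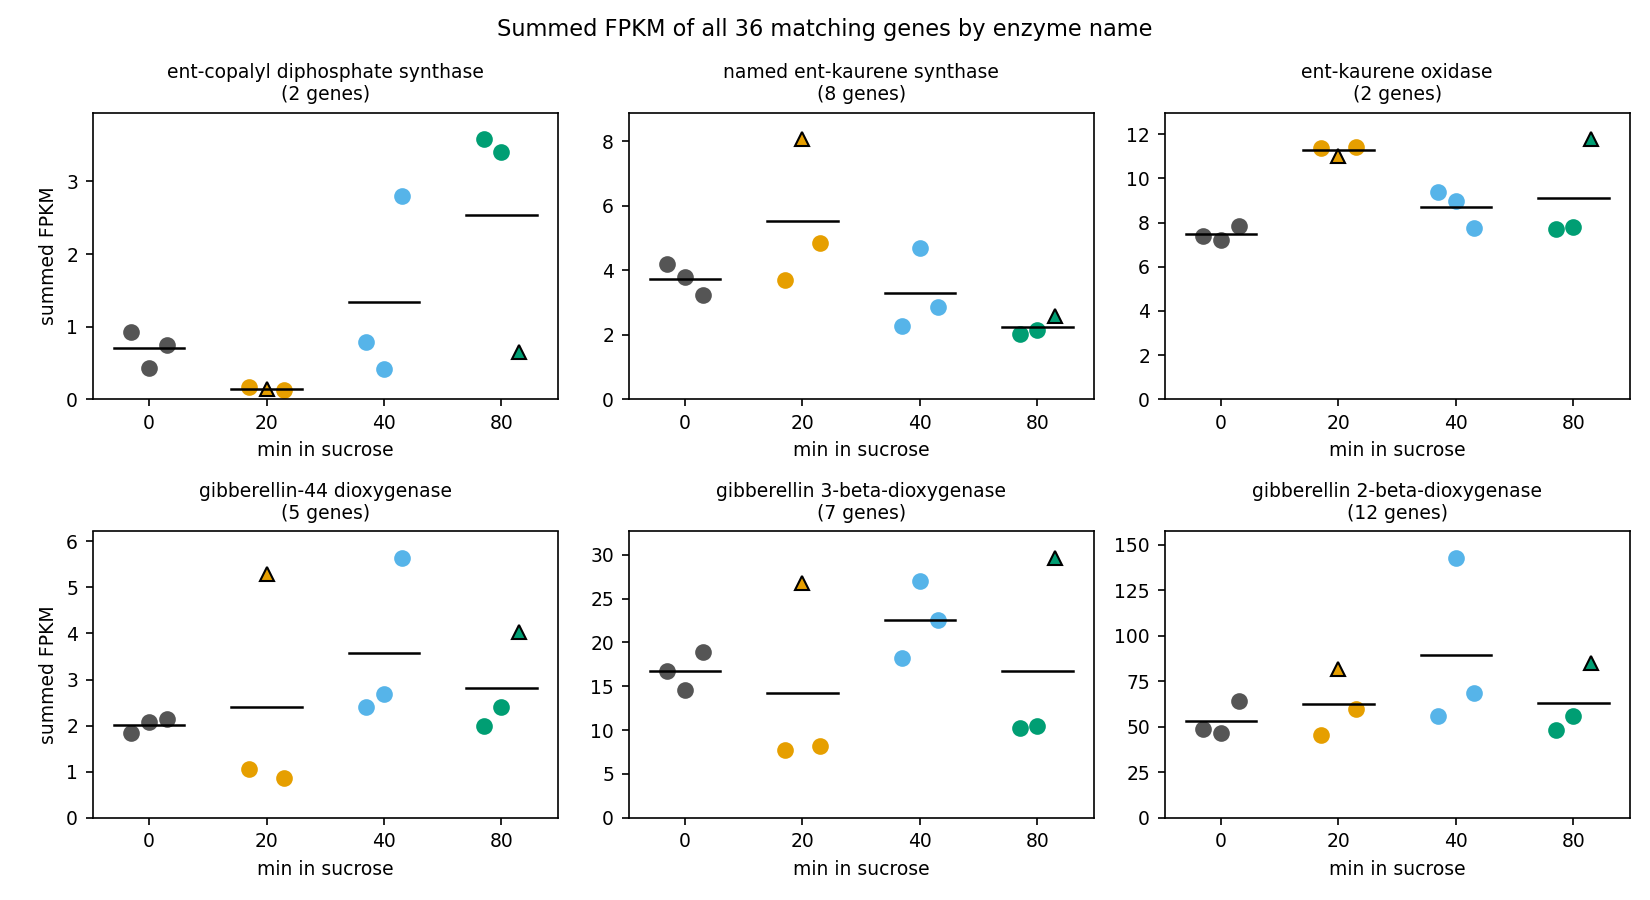
Summed FPKM of the 36 genes by enzyme name in each library, by min in sucrose, on linear axes from 0; bars are group means and triangles mark 20 min replicate 2 and 80 min replicate 3. The ent-kaurene oxidase sum is highest at 20 min at 11.3 FPKM on average, and the ent-copalyl diphosphate synthase sum is lowest there at 0.146.

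Genes on either side of these enzymes were found by words in their protein names. The plastid MEP pathway supplies the precursor of geranylgeranyl diphosphate, and edgeR called 0 of its 20 tested genes (21 listed) in each comparison. At 80 min against control 12 of them had a negative log2 fold change with an unadjusted p below 0.05 and none a positive one (9.91% of all genes in either direction), and DESeq2 called 3, all lower (3.11%). Their median log2 fold change was -0.81, where that of all genes was 0.12. Of its members with most reads, Lalb_Chr03g0027311 (hydroxymethylbutenyl diphosphate synthase) stood at 947 ± 120 CPM in controls and 310 ± 188 at 80 min. Lalb_Chr05g0216261 (deoxyxylulose phosphate synthase, the entry step) stood at 912 ± 151 and 345 ± 336 CPM. Without 20 min replicate 2 and 80 min replicate 3, edgeR called 10 of this list at 80 min against control (5.54% of all genes), 4 at 20 min (8.16%) and 0 at 40 min (0.846%).

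Of 4 geranylgeranyl diphosphate synthases 3 were tested and 0 called by edgeR or DESeq2 in any comparison, with 0 at an unadjusted p below 0.05. Lalb_Chr05g0227701 had means of 9.22 ± 2.17, 12.9 ± 3.57, 11.4 ± 2.93 and 12.5 ± 5.50 CPM over the 4 groups, and Lalb_Chr09g0333631 of 0.290 ± 0.502, 0.243 ± 0.421, 1.51 ± 2.61 and 0.972 ± 0.607 CPM. No protein name held the word kaurenoic, and the words for gibberellin receptors matched none, so the response list held 4 DELLA proteins. EdgeR called 0 of them in each comparison. At 80 min 2 had a higher level than control with an unadjusted p below 0.05 (9.91% of all genes in either direction), and DESeq2 called 0 there and 1, higher, for 80 against 20 min (7.44%). With 20 min replicate 2 and 80 min replicate 3 left out edgeR called 2 at 80 min against control (5.54%) and 1 for 80 against 20 min (17.8%). Lalb_Chr07g0187691 stood at 146 ± 4.70, 148 ± 37.8, 125 ± 14.2 and 143 ± 16.1 CPM and Lalb_Chr18g0053431 at 48.1 ± 4.35, 38.2 ± 7.54, 60.5 ± 17.4 and 98.9 ± 52.5 CPM on average.

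Gibberellin regulated proteins are small cysteine-rich proteins of the GASA family, first found through their response to the hormone. EdgeR called 0 of the 20 tested (22 listed) in each comparison. At 20 min against control 3 were higher and 4 lower at an unadjusted p below 0.05 (12.6% of all genes), and DESeq2 called 2 higher and 3 lower (4.44%). The median log2 fold change of the list was -0.71 there, where that of all genes was 0.06. For 80 against 20 min 9 were higher and 2 lower at an unadjusted p below 0.05 (17.3%), and DESeq2 called 7 higher and 2 lower (7.44%). In the fit without 20 min replicate 2 and 80 min replicate 3 edgeR called 5, 0 and 3 at 20, 40 and 80 min against control (8.16%, 0.846% and 5.54%), 8 for 40 against 20 min (10.7%), 1 for 80 against 40 min (2.27%) and 9 for 80 against 20 min (17.8%). Lalb_Chr08g0235731 had means of 188 ± 45.1, 115 ± 38.3, 316 ± 147 and 499 ± 378 CPM, and Lalb_Chr12g0201421 of 126 ± 21.6, 41.3 ± 23.0, 163 ± 44.4 and 206 ± 29.4 CPM.

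Likeness to Lalb_Chr13g0296671 was measured as Pearson's r of log2 CPM over the 12 libraries, among 18500 genes with a named protein and a mean of at least 2 CPM, and is given without a p. The points share libraries and depth. The 5 most alike were Lalb_Chr15g0078141 (acylaminoacyl-peptidase or WD40-like, r = 0.940), Lalb_Chr18g0060621 (serine/threonine protein kinase, 0.923), Lalb_Chr19g0131611 (syringolide-induced protein, 0.920), Lalb_Chr08g0233271 (up-frameshift suppressor, 0.918) and Lalb_Chr15g0083721 (allantoate deiminase, 0.917). Their ranges differed. Lalb_Chr15g0078141 went from 102 ± 5.07 CPM in controls to 56.4 ± 2.91 at 80 min, and Lalb_Chr08g0233271 from 63.9 ± 11.5 to 5.71 ± 1.77 CPM.

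Of the other 29 genes tested among the 36, Lalb_Chr25g0285421, a 2-beta-dioxygenase outside the 10, came nearest, with r = 0.886, and the next was Lalb_Chr18g0055431 at 0.42. Lalb_Chr25g0285421 showed 4.35, 1.65 and 1.84 CPM in controls and 11.9, 2.92 and 6.06 CPM at 20 min. Its values were 0.387, 0.815 and 1.60 CPM at 40 min and 0.114, 0.247 and 0.266 CPM at 80 min. As with Lalb_Chr13g0296671, the 40 min plants lay below all controls and the 80 min plants below all others. The neighbour of Lalb_Chr13g0296671, Lalb_Chr13g0296651, also named ent-kaurene synthase and separated from it by 1 coding gene, had 146 reads in all, of which 52 and 80 were in 20 min replicates 1 and 3.

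**Figure D5:**
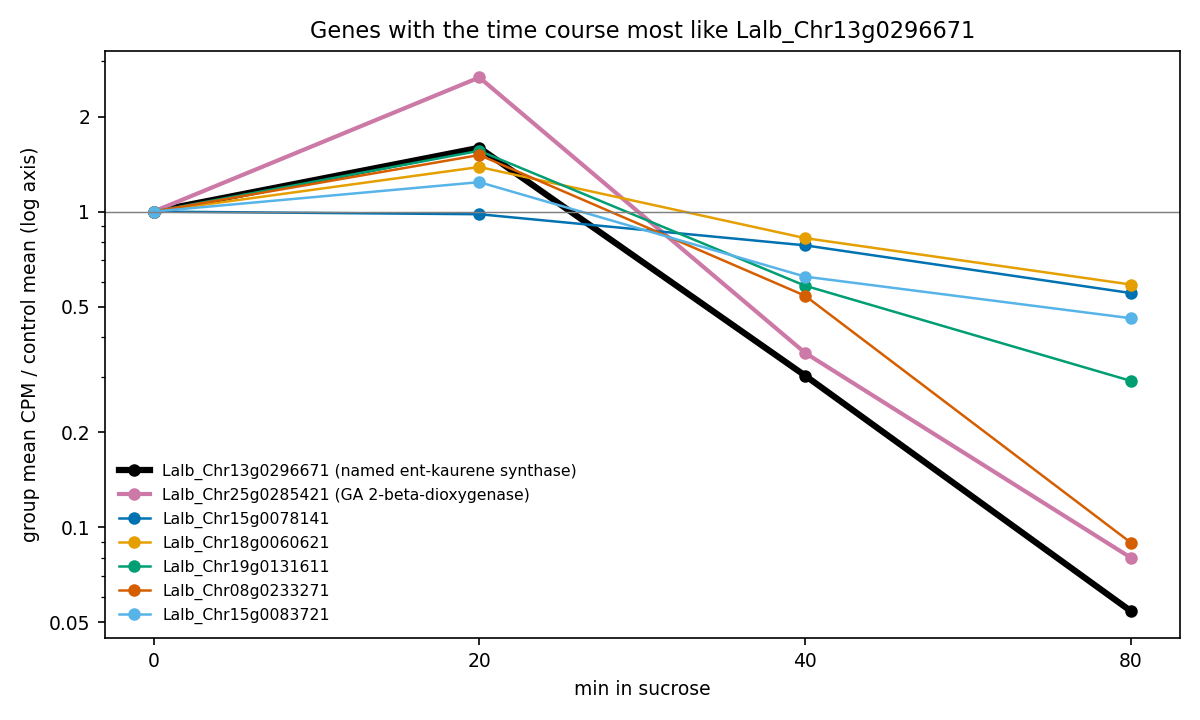
Group mean CPM divided by the control mean, on a log axis, for Lalb_Chr13g0296671, the 5 genes with the most alike levels and the 2-beta-dioxygenase Lalb_Chr25g0285421, by min in sucrose. Lalb_Chr13g0296671, Lalb_Chr25g0285421 and Lalb_Chr08g0233271 all run from above 1 at 20 min to below 0.1 at 80 min, and Lalb_Chr15g0078141 and Lalb_Chr18g0060621 decline least.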

How the data were processed

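RNA of 12 root samples was measured by RNA-seq of polyadenylated RNA with a stranded kit, per the labels' protocols. Whole-number read counts per gene and library were deposited without normalization, per the file headers, beside FPKM made by the authors, per the file headers. It also gives the authors' log2 fold changes against control and adjusted p-values from DESeq2, per the file headers. Protein names, families and lengths in amino acids come from the same deposited table. The submitters' processing notes name HISAT2, StringTie, Trimmomatic 0.32, FastQC, DESeq2 and bcl2fastq 2.20, without their roles. Build, strand setting and handling of multiply matching reads are each not given in the sources used here, so counts of near-identical family members and of antisense neighbours are uncertain. No coordinates are therefore given, and gene sequences were not used here.

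Counts were fitted with edgeR 4.0.16 (R 4.3.3; TMM, filterByExpr, robust quasi-likelihood F test) with group as the factor over all 12 libraries (8 residual degrees of freedom). Calls were made at an adjusted p (Benjamini-Hochberg) below 0.05 over 28980 of 33388 genes. CPM were scaled with the TMM factors. SE is approximate: the log2 fold change over the root of its F statistic. DESeq2 1.42.0 and limma 3.58.1, on log2(FPKM + 0.1), were alternatives, beside RLE scaling, no filter, a replicate block, fits of 6 libraries and libraries left out. The log2 fold change with its SE is printed where the unadjusted p was below 0.05 or the groups did not overlap. Floors of 3 reads cover counting error only. All 33388 identifiers matched the CNRS_Lalb_1.0 annotation, used only for which genes neighbour each other.

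The 10 genes, the pathway and marker lists and the tests were chosen with earlier results of these data known. Named genes are the 10, the first gene outside the threshold, the 5 genes most alike in level (log2 CPM with a prior count of 2), and from each pathway list with none called the pair with most reads. Lalb_Chr20g0107791, Lalb_Chr20g0107801, Lalb_Chr25g0285421, Lalb_Chr01g0015561, Lalb_Chr11g0066241 and Lalb_Chr13g0296651 were named after their values were seen, and marker sums without the genes that match only by a word were added then.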

Additional observations from a re-analysis of the deposited data

How the results depend on the processing

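The edgeR fit on all 12 libraries called 0 of the 9 genes in each comparison, and so did edgeR with RLE scaling, without the filter, on 6 libraries only and limma on FPKM. DESeq2 called 1 for 20 min against control, 1 for 40 against 20 min, 1 for 80 against 20 min and 1 over the 4 time points. Leaving out 20 min replicate 2 and 80 min replicate 3 together gave 2 at 20 min and 1 at 80 min against control, 7 for 40 against 20 min, 3 for 80 against 40 min, 4 for 80 against 20 min and 6 over the 4 time points. Those 2 libraries were picked from these same data, so a smaller spread within groups was built in. Any other cause of the higher counts was not tested. With each library left out in turn, counts ranged from 0 to 1 for 40 against 20 min (1 without 20 min replicate 2) and from 0 to 2 for 80 against 20 min (2 without 80 min replicate 3), and were 0 in the other comparisons. The 12 log2 fold changes printed with an SE, and those of Lalb_Chr13g0296671, kept their sign under all alternatives run. Over the 54 log2 fold changes of the 9 genes in 6 comparisons, 6 changed sign without the 2 libraries, all uncalled in both fits, the widest being Lalb_Chr03g0034161 at 20 min against control (0.99 to -4.13; edgeR adjusted p = 0.831 and 0.101). The log2 fold change of Lalb_Chr13g0296671 at 80 min against control ranged from -4.51 to -3.27, and at 20 min from 0.26 to 0.87. Over all genes the counts at 20, 40 and 80 min were 7, 26 and 3, from 0 to 2404, 0 to 585 and 0 to 1631 under the alternatives. With the replicate number as a block, 0 of the 9 genes were called in each comparison, and 0, 0 and 1 of all genes at 20, 40 and 80 min. Same-numbered plants showed little common deviation (r from -0.22 to 0.16, median 0.01, over 0.1 in 3 of 18 pairs). Pairs of unlike number were much the same (median -0.005, over 0.1 in 7 of 36 pairs). Whether same-numbered plants shared a batch cannot be told from these values. Genes at under 1 CPM, such as Lalb_Chr13g0296671 at 80 min, rest on few reads, which limits their precision.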
